A study of Schizosaccharomyces pombe with 31 samples.

Results

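The 8 genes described here encode the core of the mating pheromone signalling cascade of fission yeast, *Schizosaccharomyces pombe*. They were chosen by their known role in the pathway, with earlier results of these data already known. All 8 were found by identifier among the 7001 genes of the deposited tables: *gpa1* (SPBC24C6.06), *ras1* (SPAC17H9.09c), *ste6* (SPCC1442.01), *ste4* (SPAC1565.04c), *byr2* (SPBC1D7.05), *byr1* (SPAC1D4.13), *spk1* (SPAC31G5.09c) and *fus1* (SPAC20G4.02c). RNAseq was used to measure their transcripts in 31 libraries of total RNA from 2 experiments. In the nitrogen starvation experiment (27 libraries, 3 for each strain and time), the h- 972 wild type, an h- igo1::kanMX6 strain (*igo1*∆) and an h- ppk18::KanMX6 cek1::natMX6 strain (*ppk18*∆ *cek1*∆) were grown at 25 °C and sampled in minimal medium (MM), then 1 h or 4 h into culture in MM that lacked nitrogen (MM-N). In the overexpression experiment (4 libraries, 2 for each strain), the h- 972 wild type and an h- P3-nmt1-GFP-ppk18 strain were collected in MM with nitrogen after 20 h without thiamine, although the time label of these samples is 0 h. Igo1 is the Endosulfine of fission yeast, a small protein that inhibits the phosphatase PP2A/B55 once Greatwall kinases such as Ppk18 and Cek1 have phosphorylated it. The P3-nmt1 promoter, which thiamine shuts off, drives a GFP-tagged copy of Ppk18. Deleted genes were replaced by drug resistance cassettes, although the labels call these strains knockdowns. All strains carry the h- mating type, and the labels give 1 strain per genotype.

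Mating in fission yeast begins when cells run out of nitrogen. Cells of each mating type then secrete a pheromone, and the pheromone of the partner binds a receptor that acts through Gpa1, the alpha subunit of a heterotrimeric G protein. Gpa1 and the small GTPase Ras1, which is loaded with GTP by the exchange factor Ste6, activate the MAP kinase kinase kinase Byr2, and the adaptor protein Ste4 binds Byr2 and is needed for this step. Byr2 activates the MAP kinase kinase Byr1, which activates the MAP kinase Spk1. Fus1 is a formin that assembles the actin focus at which the paired cells fuse. Many genes of the pathway are transcribed under the control of Ste11, an HMG-box transcription factor that is induced by nitrogen starvation.

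Each library of the starvation experiment held 14921656 to 22464897 reads assigned to genes, and each of the overexpression experiment 14612909 to 18846318. Values are read counts divided by a size factor per library (normalized read count), fold changes are differences of log2(normalized count + 1), and a gene is called where the adjusted p of limma with Benjamini-Hochberg (BH) adjustment over all genes tested was under 0.05. SE is the standard error of the fitted log2 fold change. All 8 genes passed the minimum mean normalized count of 10 in both experiments, with 6036 and 5863 genes tested. The fewest reads behind a value were 8, for *ste6* in *igo1*∆ at 4 h. In *ppk18*∆ *cek1*∆, the counts of *ppk18* were 3.39 to 4.69% and those of *cek1* 1.12 to 2.51% of the wild type mean at the 3 times. In *igo1*∆, *igo1* was at 64.9%, 74.0% and 56.4% of the wild type in MM, at 1 h and at 4 h, so that its transcript was lower but not lost. Counts for each whole gene cannot show which part of *igo1* these reads come from. Replicates of a group differed beyond counting error in all 29 pairs (chi-square per gene of 8.73 to 84.4), so none was a copy of another. The labels call replicates biological but do not name separate cultures, and p-values measure the spread between these samples. In RNA from whole cultures, fewer cells with a transcript and less transcript per cell cannot be told apart.

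In the wild type, removal of nitrogen was followed by higher counts of *gpa1*, *ste6*, *byr2*, *spk1* and *fus1* within 1 h, and *ste4* joined them by 4 h. The largest change was that of the MAP kinase gene *spk1*, which rose 9.10-fold by 4 h. After 1 h, 5 of the 8 genes were called higher and 2 lower, against 40.3% higher and 37.5% lower among all genes tested. After 4 h, 6 were called higher and 1 lower, against 39.9% and 39.4%. Since most genes were called in these comparisons, the number of members called says little about them, and their sizes are given instead. Over the 8 genes, the median log2 fold change came to 1.12 at 1 h and 1.49 at 4 h, beside 0.043 and 0.0073 over all genes tested.

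The G protein gene *gpa1* rose early. Its normalized counts were 759, 677 and 766 in MM, 2258, 2058 and 2147 at 1 h and 2875, 2519 and 2702 at 4 h in the wild type. The 3 groups did not overlap, and most of the rise was in place at 1 h. Its log2 fold change was 1.55 (SE 0.0681, limma, BH-adjusted p = 6.58e-16) at 1 h and 1.88 (SE 0.0681, limma, BH-adjusted p = 1.55e-17) at 4 h.

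The Ras gene and that of its exchange factor differed in course. The counts of *ste6* were 217, 205 and 163 in MM, 544, 469.9 and 517 at 1 h and 1195, 898 and 1037 at 4 h, higher in each step with no overlap. The log2 fold change of *ste6* was 1.39 (SE 0.226, limma, BH-adjusted p = 6.56e-06) at 1 h and 2.41 (SE 0.226, limma, BH-adjusted p = 9.78e-10) at 4 h. In contrast, *ras1* was at 899, 762 and 872 in MM, 681, 778 and 734 at 1 h and 707, 690.1 and 613 at 4 h. The *ras1* groups in MM and at 1 h overlapped, and those in MM and at 4 h did not. It was called lower at both times, with -0.21 and -0.33 on the log2 scale (limma, BH-adjusted p = 0.0234 and 6.73e-04), but this direction turned when libraries were scaled to equal totals, to 0.22 and 0.14. With that scaling, the median of all genes moved to 0.47 at both times, and *ras1* stayed below it. The call at 1 h was also lost without wild type MM replicate 1, MM replicate 3 or 1 h replicate 1 (log2 fold changes of -0.16, -0.18 and -0.16, limma, BH-adjusted p = 0.11, 0.0766 and 0.115).

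The adaptor gene *ste4* was late. It was at 296, 258 and 283 in MM and 302, 281 and 289 at 1 h, which overlap, and at 773, 649 and 663 at 4 h. Its log2 fold change against MM was 0.061 (SE 0.128, limma, BH-adjusted p = 0.667) at 1 h and 1.31 (SE 0.128, limma, BH-adjusted p = 1.96e-09) at 4 h. Between 1 h and 4 h it rose by 1.25 (SE 0.128, limma, BH-adjusted p = 2.01e-08). When all libraries were brought to equal totals, *ste4* was already called higher at 1 h, by 0.49, limma, BH-adjusted p = 0.00132, which is close to the median of all genes under that scaling.

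The 3 kinase genes followed 3 different courses. *byr2*, at the top of the kinase module, peaked early, at 457, 497 and 451 in MM, 1974, 1903 and 1945 at 1 h and 1263, 1335 and 1327 at 4 h. It rose by 2.05 (SE 0.0770, limma, BH-adjusted p = 3.42e-17) at 1 h and then fell back by 0.57 between 1 h and 4 h (limma, BH-adjusted p = 1.41e-06). The MAP kinase kinase gene *byr1* was at 1373, 1271 and 1333 in MM, 929, 973 and 1046 at 1 h and 1561, 1385 and 1435 at 4 h. It dipped at 1 h and returned by 4 h, to a level just above all 3 MM libraries. The log2 fold change of *byr1* was -0.43 (SE 0.0834, limma, BH-adjusted p = 6.00e-05) at 1 h and 0.14 (SE 0.0834, limma, BH-adjusted p = 0.131) at 4 h. When libraries were scaled to the same total, the dip became -0.0036 and the 4 h value 0.61, and the 4 h difference was also called when only its 2 groups were fitted (limma, BH-adjusted p = 0.0418). The MAP kinase gene *spk1* was at 343, 314 and 256 in MM, 863, 780.2 and 805 at 1 h and 3158, 2496 and 2654 at 4 h. Each step of *spk1* was free of overlap, with log2 fold changes of 1.43 (SE 0.131, limma, BH-adjusted p = 7.76e-10) at 1 h and 3.18 (SE 0.131, limma, BH-adjusted p = 1.84e-16) at 4 h. Between 1 h and 4 h, *spk1* rose further by 1.76 on the log2 scale while *byr2* came down.

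The formin gene *fus1* was at 487, 410.3 and 412 in MM, 809, 762 and 769 at 1 h and 1356, 1196 and 1129.7 at 4 h, with no overlap between times. It rose by 0.84 (SE 0.0907, limma, BH-adjusted p = 1.26e-08) at 1 h and 1.49 (SE 0.0907, limma, BH-adjusted p = 3.55e-13) at 4 h. From 1 h to 4 h, 6 of the 8 genes were called higher and *byr2* lower, against 27.1% higher and 30.7% lower among all genes, and *ras1* had a log2 fold change of -0.13.

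**Figure D1:**
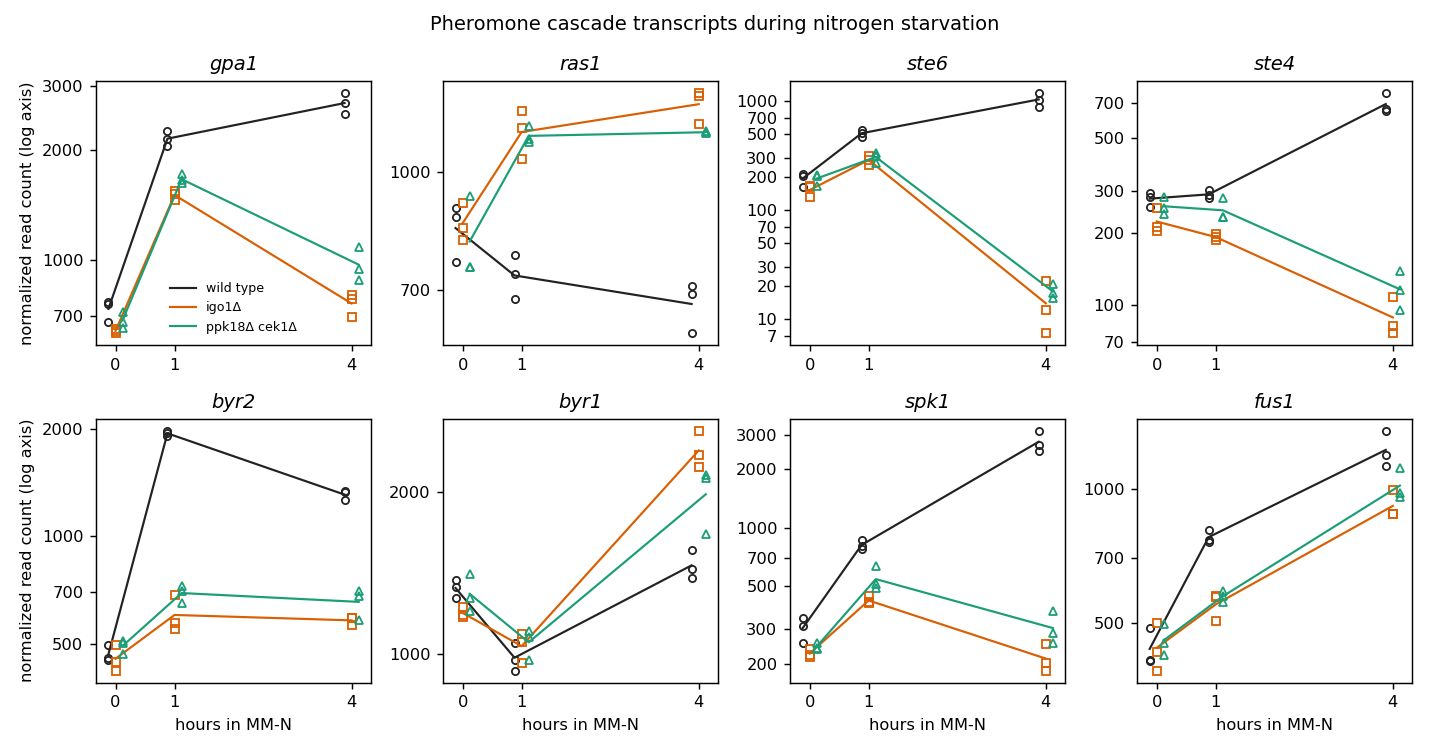
Normalized read count (log axis, a scale of its own in each panel) of the 8 genes against hours in MM-N, with 0 for MM. Points are the 3 libraries of each strain and time, set slightly apart, and lines join the means: in the wild type (circles) *byr2* was highest at 1 h and *spk1*, *ste6* and *ste4* at 4 h, and in both deletion strains *ste6* was at 22.3 or lower at 4 h.

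Before starvation, none of the 8 genes was called in MM in *igo1*∆ or in *ppk18*∆ *cek1*∆ (limma). Of all genes, 2.15% and 1.67% were called, so the lack of calls among 8 genes says little about them. Their median log2 fold change was -0.18 in *igo1*∆ and -0.051 in *ppk18*∆ *cek1*∆, beside -0.0093 and -0.011 over all genes. An unadjusted p under 0.05 was reached by 3 genes in *igo1*∆ and by 1 in *ppk18*∆ *cek1*∆, and neither edgeR nor DESeq2 called any. The shares of all genes under these other rules are not given here, so these counts are not read as results about the 8 genes. In *igo1*∆, *spk1* was at 222, 238 and 216, below the 3 wild type libraries, with a log2 fold change of -0.42 (SE 0.131, limma, BH-adjusted p = 0.112). *gpa1* and *ste4* had log2 fold changes of -0.20 and -0.32 there, and with *byr1* they too lay below the 3 wild type libraries. In *ppk18*∆ *cek1*∆ all 8 genes overlapped the wild type in MM. The share of all genes without overlap in MM is not given here, so the lack of overlap is not read as a result about these genes. The lowest and highest of the 8 log2 fold changes were -0.42 and 0.023 in *igo1*∆, -0.30 and 0.078 in *ppk18*∆ *cek1*∆.

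At 1 h in MM-N, *byr2* already separated the strains. It was at 686, 551 and 573 in *igo1*∆ and 705, 650.2 and 728 in *ppk18*∆ *cek1*∆, and neither deletion group overlapped the wild type. The log2 fold change of *byr2* against the wild type was -1.69 (SE 0.0770, limma, BH-adjusted p = 1.95e-14) in *igo1*∆ and -1.48 (SE 0.0770, limma, BH-adjusted p = 2.50e-13) in *ppk18*∆ *cek1*∆. Both deletion strains were compared with the same wild type libraries, so their values are given side by side and not as independent results.

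At this time limma called 6 genes lower and 1 higher for *igo1*∆, and 5 genes lower and 1 higher for *ppk18*∆ *cek1*∆, against 29.9% lower and 32.6% higher, and 28.7% and 30.5%, among all genes. *gpa1* reached 1466, 1517 and 1543 in *igo1*∆ and 1623, 1661 and 1718 in *ppk18*∆ *cek1*∆, above all MM libraries and below all wild type libraries of 1 h. Its log2 fold changes against the wild type were -0.51 and -0.37. *ste6*, *spk1* and *fus1* were also lower in both strains, at -0.82, -0.95 and -0.51 in *igo1*∆ and -0.73, -0.59 and -0.44 in *ppk18*∆ *cek1*∆. *ste4* was called lower in *igo1*∆ (-0.59, SE 0.128, limma, BH-adjusted p = 3.27e-04), and had a log2 fold change of -0.23 (SE 0.128) in *ppk18*∆ *cek1*∆ with an adjusted p of 0.134 in the same limma fit. The gene that went the other way was *ras1*, at 1205, 1146 and 1042 in *igo1*∆ and 1095, 1150.2 and 1107 in *ppk18*∆ *cek1*∆, above every wild type library at 1 h. It was higher by 0.63 (SE 0.0803, limma, BH-adjusted p = 4.41e-07) and 0.61 (SE 0.0803, limma, BH-adjusted p = 7.24e-07). *byr1* had log2 fold changes of 0.071 (SE 0.0834) and 0.095 (SE 0.0834) and was not called.

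After 4 h, the members of the cascade had gone in opposite directions in the deletion strains. Transcripts of *ste6*, *spk1*, *ste4*, *gpa1*, *byr2* and *fus1* were lower than in the wild type in both strains, and those of *ras1* and *byr1* were higher. All 8 genes were called in each strain and no group overlapped the wild type, while 36.4% of all genes were called lower and 38.8% higher in *igo1*∆, 34.8% and 37.6% in *ppk18*∆ *cek1*∆, and 79.9% and 75.3% did not overlap. Over the 8 genes, the median came to -1.50 in *igo1*∆ and -1.24 in *ppk18*∆ *cek1*∆, beside 0.023 and 0.026 over all genes. Scaling libraries to the same total moved the median of all genes to -0.15 and -0.16, with 1714 genes higher and 2814 lower in *igo1*∆ and 1558 and 2846 in *ppk18*∆ *cek1*∆, in place of 2341 and 2195, and 2271 and 2103. None of the 8 directions turned under any alternative at 4 h.

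The exchange factor gene *ste6* had the largest difference of the 8 at 4 h. Its normalized counts were 12.02, 7.39 and 22.3 in *igo1*∆ and 20.8, 17.4 and 15.5 in *ppk18*∆ *cek1*∆, against 1195, 898 and 1037 in the wild type. Every deletion strain library was far under the lowest wild type library. The log2 fold change was -6.25 (SE 0.226, limma, BH-adjusted p = 4.11e-17) in *igo1*∆, where the mean was 1.33% of the wild type, and -5.79 (SE 0.226, limma, BH-adjusted p = 2.43e-16) in *ppk18*∆ *cek1*∆, at 1.71%. *ste6* had risen in both strains at 1 h, to 261, 292 and 317 and 270.1, 317 and 338, from 131, 162 and 166 and 205, 169 and 213 in MM. In *ppk18*∆ *cek1*∆ this rise was not called without MM replicate 2 (0.55, limma, BH-adjusted p = 0.054). It then fell to below its own MM level, with log2 fold changes of -3.49 (*igo1*∆) and -3.38 (*ppk18*∆ *cek1*∆) (limma, BH-adjusted p = 9.75e-13 and 1.81e-12).

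*spk1* was next. At 4 h it was at 252, 184 and 201 in *igo1*∆ and 288, 254 and 372 in *ppk18*∆ *cek1*∆, against 3158, 2496 and 2654 in the wild type. The deletion strains were thus at 7.67% and 11.01% of the wild type mean, with log2 fold changes of -3.70 (SE 0.131, limma, BH-adjusted p = 2.86e-17) and -3.19 (SE 0.131, limma, BH-adjusted p = 6.52e-16). Compared with its own MM level, *spk1* had a log2 fold change of -0.097 (SE 0.131) in *igo1*∆ (limma, BH-adjusted p = 0.497). In *ppk18*∆ *cek1*∆ it was 0.30 (SE 0.131, limma, BH-adjusted p = 0.0412), a call that was lost with edgeR, with quantile normalization (0.18, limma, BH-adjusted p = 0.223), with only those groups fitted, and without MM replicate 1, MM replicate 2 or 4 h replicate 3 (0.29, 0.27 and 0.14). At 1 h, *spk1* had been higher than in MM in both strains, by 0.90 and 1.14.

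*ste4* ended below its starting level in both deletion strains. It was at 76.1, 81.3 and 108 in *igo1*∆ and 95.1, 115 and 138 in *ppk18*∆ *cek1*∆ at 4 h, and at 212, 255 and 204 and 241, 254 and 283 in MM. No deletion strain library at 4 h reached its MM group, nor the wild type, which was at 773, 649 and 663. The log2 fold change against the wild type was -2.97 (SE 0.128, limma, BH-adjusted p = 1.12e-15) and -2.58 (SE 0.128, limma, BH-adjusted p = 2.03e-14), and that against its own MM level was -1.34 and -1.16.

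*gpa1* rose and came back. In *igo1*∆ it went from 629.7, 638 and 648 in MM to 800.3, 696 and 783 at 4 h, and in *ppk18*∆ *cek1*∆ from 676, 652 and 720.5 to 945, 884 and 1084. Against the wild type at 4 h (2875, 2519 and 2702), its log2 fold change was -1.83 (SE 0.0681, limma, BH-adjusted p = 7.54e-17) and -1.48 (SE 0.0681, limma, BH-adjusted p = 5.78e-15). It was still called higher than in MM, by 0.25 in *igo1*∆ and 0.50 in *ppk18*∆ *cek1*∆. *byr2* stayed near its 1 h level, at 593, 590.3 and 564 and 705, 583 and 680.4, with log2 fold changes against the wild type of -1.17 (SE 0.0770, limma, BH-adjusted p = 3.35e-12) and -0.999 (SE 0.0770, limma, BH-adjusted p = 6.76e-11). *byr2* had its largest difference from the wild type at 1 h, and *ste6*, *spk1*, *ste4* and *gpa1* at 4 h.

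*fus1* had the smallest of the 8 differences at 4 h in both strains, except at equal totals, where *byr1* (0.53 and 0.24) was closer to 0 than *fus1* (-0.59 and -0.45). It was at 995, 879 and 880.4 in *igo1*∆ and 980.0, 963 and 1116 in *ppk18*∆ *cek1*∆, against 1356, 1196 and 1129.7 in the wild type, and it rose from MM to 4 h in all 3 strains, by 1.49 in wild type cells, 1.07 in *igo1*∆ cells and 1.16 in *ppk18*∆ *cek1*∆ cells. Its log2 fold change against the wild type at 4 h was -0.42 (SE 0.0907, limma, BH-adjusted p = 2.57e-04) and -0.27 (SE 0.0907, limma, BH-adjusted p = 0.0118). In *ppk18*∆ *cek1*∆ this call was lost without wild type 4 h replicate 1 (-0.19, limma, BH-adjusted p = 0.0858) or *ppk18*∆ *cek1*∆ 4 h replicate 2 (-0.23, limma, BH-adjusted p = 0.0526), within a range of the adjusted p over 16 alternatives of 0.000128 to 0.0858.

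*ras1* and *byr1* were higher in the deletion strains. *ras1* was at 1273, 1158 and 1261 in *igo1*∆ and 1133, 1131 and 1127 in *ppk18*∆ *cek1*∆ at 4 h, against 707, 690.1 and 613 in the wild type. All 6 deletion strain libraries lay above the wild type, with log2 fold changes of 0.88 (SE 0.0803, limma, BH-adjusted p = 1.12e-09) and 0.76 (SE 0.0803, limma, BH-adjusted p = 1.62e-08). *byr1* was at 2224, 2601 and 2344 and 2120.5, 2149 and 1672, against 1561, 1385 and 1435. Its log2 fold changes were 0.71 (SE 0.0834, limma, BH-adjusted p = 6.87e-08) and 0.43 (SE 0.0834, limma, BH-adjusted p = 7.50e-05), and those against its own MM level were 1.001 in *igo1*∆ and 0.61 in *ppk18*∆ *cek1*∆. In the wild type, *ras1* was called higher than in MM only at 1 h under scaling to equal totals, and *byr1* only at 4 h under the 2 alternatives given above.

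**Figure D2:**
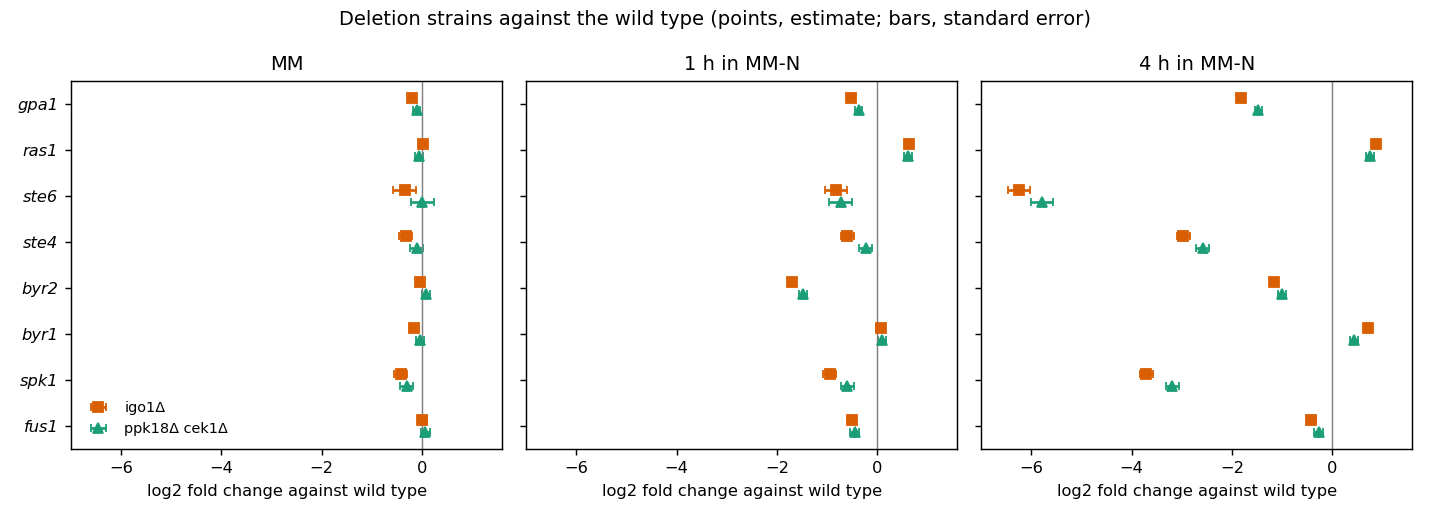
Log2 fold change (horizontal axis) of the 8 genes in *igo1*∆ (squares) and *ppk18*∆ *cek1*∆ (triangles) against the wild type in MM, at 1 h and at 4 h of MM-N. Bars are standard errors of limma. In MM all points lie between -0.42 and 0.078, and at 4 h *ste6* is at -6.25 and -5.79 and *ras1* at 0.88 and 0.76.

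Whether a response differed between strains was tested directly, as the change from MM in a deletion strain minus that in the wild type. At 4 h all 8 genes were called in both strains, 6 lower and 2 higher, against 30.1% lower and 34.2% higher among all genes for *igo1*∆ and 28.1% and 32.9% for *ppk18*∆ *cek1*∆. With libraries scaled to equal totals, *byr1* in *ppk18*∆ *cek1*∆ was not called (0.27, limma, BH-adjusted p = 0.103). The largest differences were those of *ste6*, -5.90 (SE 0.319, limma, BH-adjusted p = 2.11e-13) for *igo1*∆ and -5.80 (SE 0.319, limma, BH-adjusted p = 3.83e-13) for *ppk18*∆ *cek1*∆. At 1 h, the response of *byr2* differed by -1.65 (SE 0.109, limma, BH-adjusted p = 4.99e-11) and -1.56 (SE 0.109, limma, BH-adjusted p = 1.68e-10). With -0.47 and -0.74, the difference for *ste6* at 1 h was not called (limma, BH-adjusted p = 0.235 and 0.0649), but was with edgeR (0.0414 and 0.00383) and DESeq2 (0.0396 and 8.77e-04). At 1 h, 4 genes were called lower and 1 higher for *igo1*∆, and 3 and 1 for *ppk18*∆ *cek1*∆, against 22.7% and 25.1%, and 21.7% and 23.7%.

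The deletion strains also differed from each other at 4 h. *spk1* was lower in *igo1*∆ than in *ppk18*∆ *cek1*∆, with a log2 difference of -0.51 (SE 0.131, limma, BH-adjusted p = 0.0191), as was *gpa1*, with -0.35 (SE 0.0681, limma, BH-adjusted p = 0.0019), so that 2 of 8 genes were called lower and none higher, against 1.59% and 4.41% of all genes. The call of *spk1* was lost without *igo1*∆ 4 h replicate 2 (-0.42, limma, BH-adjusted p = 0.14), *igo1*∆ 4 h replicate 3 (-0.48, 0.0858) or *ppk18*∆ *cek1*∆ 4 h replicate 3 (-0.36, 0.19), and neither gene was called when only those groups were fitted. *byr1* was near the threshold, at 0.28 (SE 0.0834, limma, BH-adjusted p = 0.0505), and was called in 7 of 16 alternatives, among them edgeR, DESeq2 and the fits without *igo1*∆ 4 h replicate 1 (0.33), *ppk18*∆ *cek1*∆ 4 h replicate 1 (0.33) or *ppk18*∆ *cek1*∆ 4 h replicate 2 (0.34). *ste4* was called with quantile normalization (-0.47) and without *igo1*∆ 4 h replicate 3 (-0.54) or *ppk18*∆ *cek1*∆ 4 h replicate 1 (-0.52), and *ste6* without *igo1*∆ 4 h replicate 3 (-0.84). The other 5 genes had log2 differences between -0.46 (SE 0.226) and 0.12 (SE 0.0803) and were not called in the fit with all libraries.

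Against their own MM level, 6 genes were called higher and *byr1* lower at 1 h in both deletion strains, with 39.7% higher and 38.1% lower among all genes in *igo1*∆ and 39.2% and 38.2% in *ppk18*∆ *cek1*∆. At 4 h, 5 genes were called higher and 2 lower in *igo1*∆, and 6 and 2 in *ppk18*∆ *cek1*∆, against 42.1% and 41.2%, and 41.9% and 40.9%. The lower call of *byr1* at 1 h turned to 0.19 and 0.054 under scaling to equal totals, and in *igo1*∆ it was lost without MM replicate 2 (-0.19) or 1 h replicate 1 (-0.16). In the order of the 9 group means, the wild type at 4 h was highest for *gpa1*, *ste6*, *ste4*, *spk1* and *fus1*, and no deletion strain library overlapped it. *byr2* was highest in the wild type at 1 h. For *ras1* the order was other, with the wild type at 1 h (overlapping *ppk18*∆ *cek1*∆ in MM) and at 4 h as the 2 lowest groups and the 4 starved deletion groups, each overlapping the next of them, as the 4 highest. *byr1* was highest in *igo1*∆ at 4 h (2389.6 ± 193, mean ± SD, n = 3), followed without overlap by *ppk18*∆ *cek1*∆ at 4 h (1981 ± 268). The lowest groups of *ste6* and *ste4* were *igo1*∆ and *ppk18*∆ *cek1*∆ at 4 h, which overlap each other.

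With *ppk18* overexpressed in nitrogen-rich medium, 7 of the 8 genes were higher, though the smallest rise, that of *fus1*, was not called with DESeq2. The largest rise was that of *spk1*, from 246 and 208 in the wild type libraries to 1684 and 1647, 7.34-fold, with a log2 fold change of 2.88 (SE 0.0951, limma, BH-adjusted p = 2.96e-08). *ste6* rose from 165 and 148 to 697 and 662, by 2.11 (SE 0.106, limma, BH-adjusted p = 3.64e-07). These were also the genes with the largest rises in the starved wild type at 4 h. Of the 8 genes, 7 were called higher and 1 lower, against 29.6% and 27.8% among all genes, and no gene overlapped between the strains, as was the case for 79.2% of all genes with these 2 libraries per strain. Over the 8 genes, the median log2 fold change came to 0.98, beside -0.00068 over all genes.

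*byr2* went from 409 and 446 to 1007 and 834 and *gpa1* from 580.3 and 558 to 1157 and 1250.1. Their log2 fold changes were 1.10 (SE 0.103, limma, BH-adjusted p = 1.68e-05) and 1.08 (SE 0.0752, limma, BH-adjusted p = 2.67e-06). *ste4* rose from 201 and 199 to 358 and 386 (0.89, SE 0.108, limma, BH-adjusted p = 9.08e-05). *byr1*, which was not called higher in the starved wild type at 4 h, rose from 1109 and 1072 to 1832 and 1721 (0.70, SE 0.0645, limma, BH-adjusted p = 1.52e-05). In both deletion strains *byr1* had been higher as well, so *byr1* was higher than in the wild type both with *ppk18* overexpression and in each deletion strain at 4 h of starvation. *fus1* went from 408 and 411 to 485 and 514 (0.29, SE 0.0884, limma, BH-adjusted p = 0.0196) and *ras1* from 631 and 626 to 486 and 555 (-0.27, SE 0.0906, limma, BH-adjusted p = 0.0261). Neither call held with DESeq2, where the adjusted p was 0.0836 for *fus1* and 0.08 for *ras1*. That of *ras1* was lost without the mean-variance trend (adjusted p = 0.067, limma), and without overexpression replicate 1 or either wild type library (-0.18, -0.27 and -0.28), and that of *fus1* without overexpression replicate 2 or either wild type library (0.24, 0.28 and 0.29). The mean count of *ppk18* itself was 359073 in these cells against 4968 in the wild type. Since the 2 experiments were normalized separately, no level was compared between them.

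**Figure D3:**
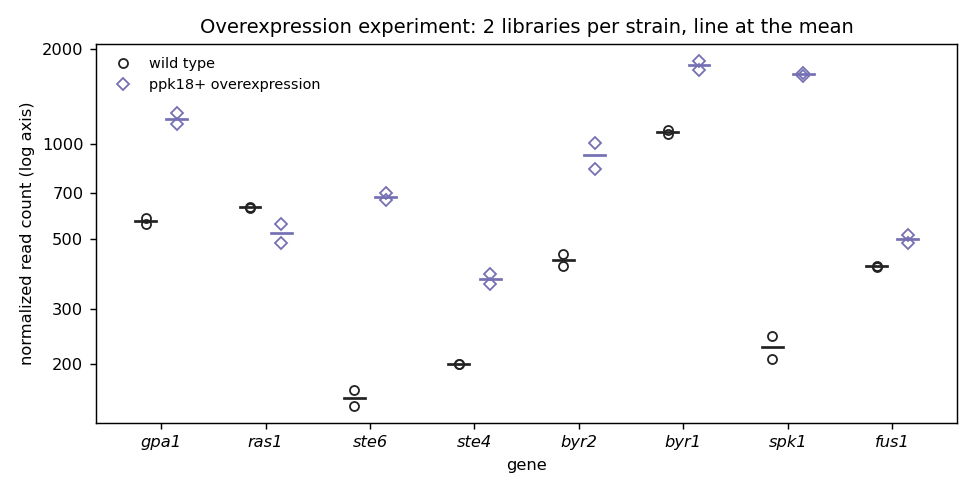
Normalized read count (log axis) of the 8 genes in MM after 20 h without thiamine, in the wild type (circles) and the *ppk18* overexpression strain (diamonds), with 2 libraries each and a line at the mean. *spk1* lies near 227 in the wild type and near 1666 in the overexpression strain, and *ras1* is the one gene with both overexpression libraries below the wild type.

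All 8 genes overlap a gene annotated on the opposite strand, as do 89.9% of the 5111 protein-coding genes in the tables, and the strand setting of the counting is not given in the sources used here, although the libraries were stranded. The counts of the pairs with the larger overlaps were set side by side. *ste6* lies wholly within the non-coding RNA gene SPNCRNA.1227. That RNA was at 259, 278 and 247 in the wild type at 4 h, 355, 345 and 346 in *igo1*∆ and 437, 490.3 and 431 in *ppk18*∆ *cek1*∆. It was higher where *ste6* was lower, with log2 fold changes of 0.42 and 0.79 (limma, BH-adjusted p = 6.10e-05 and 6.48e-09), and it was lower where *ste6* was higher in the overexpression strain (-0.49, limma, BH-adjusted p = 0.0115, and 0.0556 with DESeq2). In the starved wild type, both were higher than in MM, SPNCRNA.1227 by 0.52 at 1 h and 0.20 at 4 h, of which the latter was not called with quantile normalization (0.022). Both were also higher at 1 h than in MM in the deletion strains, SPNCRNA.1227 by 0.78 in *igo1*∆ and 0.89 in *ppk18*∆ *cek1*∆.

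*spk1* shares 77.3% of its length with *hem4*, a gene of heme synthesis on the opposite strand. *hem4* was at 1167, 1152 and 1199.5 in the wild type in MM, 731, 777 and 694 in the wild type at 4 h, 1250.0, 1413 and 1266 in *igo1*∆ at 4 h and 1214, 1248 and 1051 in *ppk18*∆ *cek1*∆ at 4 h. *spk1* and *hem4* moved in opposite directions in these comparisons, with *hem4* lower in the wild type at 4 h than in MM (-0.68), higher in the deletion strains (0.83 and 0.67) and lower in the overexpression strain (-0.48, limma, BH-adjusted p = 0.00158). *leu5*, which covers 87.4% of *ras1*, was lower in the deletion strains at 4 h, with -0.47 and -0.52, where *ras1* was higher, but at 1 h it was called higher in *igo1*∆ as *ras1* was (0.24). SPNCRNA.674, which covers all of *byr1*, was called lower in *igo1*∆ (-0.56) and had -0.25 in *ppk18*∆ *cek1*∆ (limma, BH-adjusted p = 0.075). SPNCRNA.1503, which covers 47.3% of *gpa1*, moved the same way as *gpa1* at 4 h, by 0.45 in the wild type and -0.44 and -0.39 in the deletion strains. At 1 h it was higher in the deletion strains (0.34 and 0.26), where *gpa1* was lower, and it had -0.082 in the wild type at 1 h and -0.16 with overexpression, neither called, where *gpa1* was higher. Whether reads of one strand were counted for the other was not tested.

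**Figure D4:**
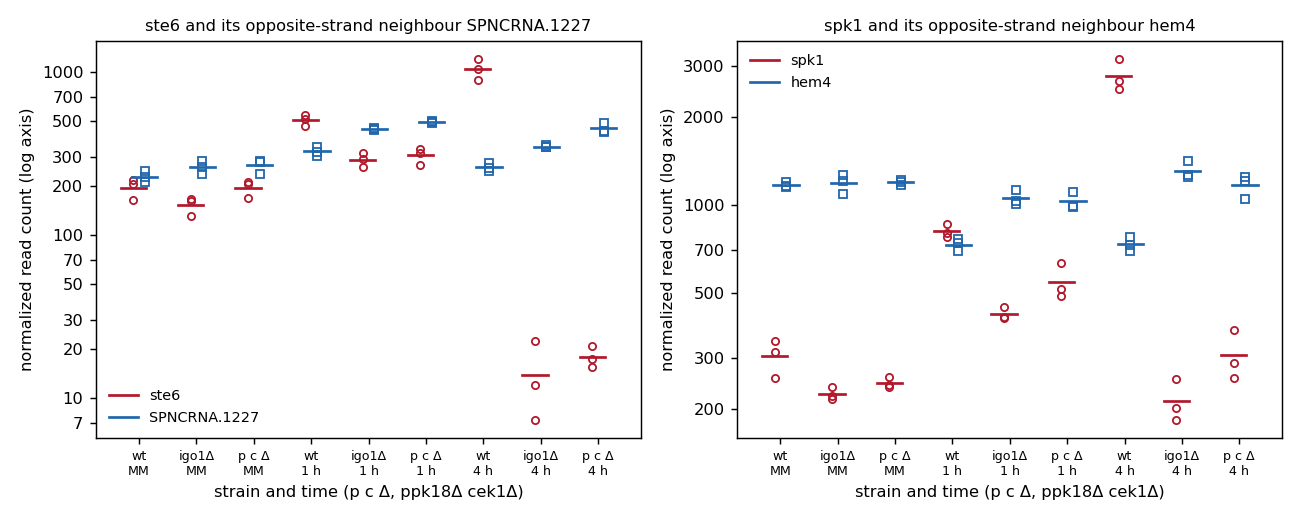
Normalized read count (log axis) of *ste6* and SPNCRNA.1227 (left) and of *spk1* and *hem4* (right) in the 9 groups of the starvation experiment. Points are the 3 libraries of a group and bars their mean: at 4 h *ste6* and *spk1* are lower and their opposite-strand neighbours higher in both deletion strains than in the wild type.

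The rest of the pathway was followed through lists of genes by role. The shares of all genes called, for each list count at 4 h, were 39.9% higher and 39.4% lower in the wild type, 38.8% and 36.4% in *igo1*∆, and 37.6% and 34.8% in *ppk18*∆ *cek1*∆, and with overexpression 29.6% and 27.8%. These shares do not hold at equal totals. With that scaling, more of all genes were higher than lower in the wild type at 4 h, and more were lower than higher in both deletion strains. List counts at equal totals are to be read beside that shift and not as results about the lists. Of the 12 genes for pheromones, their receptors, export and processing, 9 higher and 1 lower (median log2 fold change 1.14) were called in the wild type at 4 h, 2 higher and 10 lower (median log2 fold change -2.07) in *igo1*∆ against the wild type and 2 higher and 10 lower (median log2 fold change -1.93) in *ppk18*∆ *cek1*∆. At equal totals the count in the wild type became 11 and 1. With *ppk18* overexpression, 6 of 12 tested were higher and 1 lower (median log2 fold change 0.34). The M-factor pheromone gene *mfm1* was at 86.9 ± 28.2 in wild type MM and 8305 ± 2138 at 4 h (mean ± SD, n = 3 each), against 29.6 ± 28.0 in *igo1*∆ and 27.4 ± 5.78 in *ppk18*∆ *cek1*∆, the largest fall of the list in both (-8.47 and -8.18). The largest rise in the wild type was that of *mfm3* (6.67). The *mfm* genes encode the same peptide, and reads may be shared between them. *map2*, a pheromone gene of the other mating type, fell in the wild type (-1.48), and had the largest rise against the wild type in *igo1*∆ (0.88, not called with quantile normalization at 0.44), as the protease gene *sxa1* had in *ppk18*∆ *cek1*∆ (0.86). Of 9 markers of M cells (h-), 6 could be tested. The summed count of the 9 was 2848 to 3483 in the wild type in MM and 21228 to 29127 at 4 h, against 2013 to 2392 in *igo1*∆ and 2235 to 2277 in *ppk18*∆ *cek1*∆ at 4 h. The mating type genes *mat1-Mc* and *mat3-Mc*, copies whose reads may be shared, had means of 1.21 and 1.44 in wild type MM, and *mat3-Mi* was at 0 there. Of 7 markers of P cells (h+), 4 were matched, with a summed count of 8999 to 9463 in wild type cells at 4 h, 14605 to 15421 in those of *igo1*∆ and 14447 to 17593 in those of *ppk18*∆ *cek1*∆, most of it from *sxa1* (8331 in wild type MM). The P cell marker *map4* rose in the wild type (1.47), and *map3* was lower in the deletion strains (-0.83 and -0.49). With *ppk18* overexpression the summed counts were 5759 to 6150 for M cell markers, against 2190 to 2641 in the wild type, and 11454 to 12336 for P cell markers, against 8657 to 8692. Since all strains are h- by their labels, and *sxa1* was high in them, these sums are counts of transcripts and not shares of M and P cells. How they relate to the changes of the 8 genes was not tested.

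Regulators of the cascade were mixed. Of 12, 9 higher and 1 lower (median log2 fold change 0.72) were called in the wild type at 4 h, 3 higher and 7 lower (median log2 fold change -0.40) in *igo1*∆ and 3 higher and 6 lower (median log2 fold change -0.39) in *ppk18*∆ *cek1*∆. At equal totals these became 11 and 1, 1 and 8, and 2 and 7. With *ppk18* overexpression, 9 of 12 tested were higher and 0 lower (median log2 fold change 0.32). This count was 7 with quantile normalization, equal totals or DESeq2. *rgs1*, whose product turns off the pheromone-activated G protein, went from 323 ± 22.5 to 1683 ± 238 in the wild type and was at 126 ± 16.4 in *igo1*∆ and 158 ± 15.4 in *ppk18*∆ *cek1*∆ at 4 h (mean ± SD, n = 3 each). It had the largest fall of this list in both deletion strains, -3.73 and -3.40 (limma, BH-adjusted p = 5.71e-18 and 4.81e-17). The largest rise and fall in the wild type were those of *ste7* (3.16) and of the 14-3-3 gene *rad24* (-0.93). Against the wild type at 4 h, the largest rises were those of *gap1*, the gene of a Ras GTPase-activating protein, in *igo1*∆ (0.43) and of the p21-activated kinase gene *shk1* in *ppk18*∆ *cek1*∆ (0.53).

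Among 10 regulators of sexual differentiation, 8 higher and 1 lower (median log2 fold change 1.06) were called in the wild type at 4 h, 6 higher and 2 lower (median log2 fold change 0.46) in *igo1*∆ and 6 higher and 2 lower (median log2 fold change 0.45) in *ppk18*∆ *cek1*∆. At equal totals these became 9 and 0, 5 and 3, and 6 and 2. With *ppk18* overexpression, 8 of 9 tested were higher and 0 lower (median log2 fold change 0.81). *mei2*, an RNA-binding protein gene needed for meiosis, rose most in the wild type (4.31) and fell most against it in the deletion strains (-4.95 and -3.71). The largest fall in the wild type was that of *mei3* (-0.79, not called with edgeR or DESeq2), and the largest rise in the deletion strains was also that of *mei3* (2.52 and 2.16), whose wild type mean at 4 h was only 4.22. The transcription factor gene *ste11* was at 655 ± 166 in MM, 279.7 ± 133 at 1 h and 2486 ± 552 at 4 h in the wild type, and at 476 ± 84.9 and 722 ± 464 in *igo1*∆ and *ppk18*∆ *cek1*∆ at 4 h (mean ± SD, n = 3 each). It was named for its place above the 8 genes after its values were known. Its log2 fold change was -2.37 and -1.94 at 4 h and 1.57 with *ppk18* overexpression (limma, BH-adjusted p = 1.07e-06, 1.86e-05 and 6.43e-07). At 1 h, when *byr2*, *gpa1* and *spk1* were already higher in the wild type, *ste11* was lower than in MM, with a log2 fold change of -1.30 (limma, BH-adjusted p = 0.00128). Counts of RNA do not show the level or activity of the Ste11 protein. Its part in the changes of the 8 genes was not tested.

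The kinase genes of other MAP kinase cascades were also counted. Of 7 kinase genes of the cell integrity and stress cascades, 3 higher and 2 lower (median log2 fold change 0.17) were called in the wild type at 4 h, 3 higher and 2 lower (median log2 fold change 0.026) in *igo1*∆ and 3 higher and 2 lower (median log2 fold change -0.026) in *ppk18*∆ *cek1*∆. Among all genes, 39.9% were higher and 39.4% lower in the wild type at 4 h. With libraries scaled to equal totals, the counts became 5 and 0, 2 and 4, and 1 and 3. With *ppk18* overexpression, 4 of 7 tested were higher and 0 lower (median log2 fold change 0.26). The MAP kinase genes *pmk1* and *sty1* had log2 fold changes of -0.43 (0.040 at equal totals) and -0.061 in the wild type at 4 h, where *spk1* had 3.18. The largest rise was that of *win1* (1.08) and the largest fall that of *pek1* (-0.58, not called at equal totals with -0.11). *win1* was lower than the wild type in the deletion strains at 4 h (-0.91 and -0.72), while *wis4*, which like *win1* encodes a MAP kinase kinase kinase of the stress cascade, was higher (1.07 and 0.65). The difference in response between cascades was not tested.

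**Figure D5:**
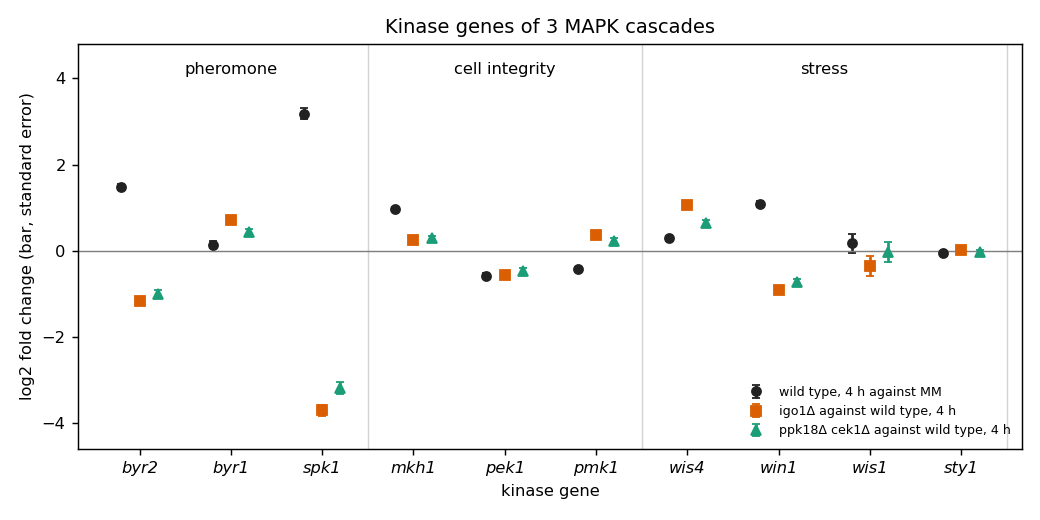
Log2 fold change (vertical axis, bars are standard errors of limma) of the kinase genes of the pheromone, cell integrity and stress cascades in the wild type at 4 h against MM (circles) and in *igo1*∆ (squares) and *ppk18*∆ *cek1*∆ (triangles) against the wild type at 4 h. *spk1* is at 3.18 in the wild type and at -3.70 and -3.19 in the deletion strains, and the kinase genes of the other cascades lie between -0.91 and 1.08.

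Of 5 genes of the G protein branch that senses glucose, 3 higher and 0 lower (median log2 fold change 0.65) were called in the wild type at 4 h, 3 higher and 2 lower (median log2 fold change 0.43) in *igo1*∆ and 3 higher and 2 lower (median log2 fold change 0.49) in *ppk18*∆ *cek1*∆. At equal totals the count in the wild type became 5 and 0. With *ppk18* overexpression, 3 of 5 tested were higher and 0 lower (median log2 fold change 0.18). *git5*, the beta subunit gene of that branch, rose in the wild type (1.37) and was higher still in the deletion strains (1.02 and 1.01), unlike *gpa1*, and the receptor gene *git3* was lower (-0.63 and -0.36). Of 11 genes for cell fusion and other formins and actin proteins, 5 higher and 3 lower (median log2 fold change 0.10) were called in the wild type at 4 h, 1 higher and 7 lower (median log2 fold change -0.19) in *igo1*∆ and 0 higher and 7 lower (median log2 fold change -0.23) in *ppk18*∆ *cek1*∆. At equal totals these became 10 and 1, 0 and 10, and 0 and 11. With *ppk18* overexpression, 3 of 11 tested were higher and 3 lower (median log2 fold change -0.0066). The membrane protein gene *dni2*, which acts in cell fusion, rose most in the wild type (2.46) and fell most in the deletion strains (-3.00 and -3.10). The tropomyosin gene *cdc8* fell most in the wild type (-0.60), and *acp1*, which encodes a subunit of the actin capping protein, was the 1 gene called higher in *igo1*∆ (0.16, but -0.014 at equal totals).

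The genes most like each member were found by the Pearson correlation of the 9 group means of log2(normalized count + 1), as a description over group means that share libraries and size factors. They were *ndc80* and *hrr1* (0.991 and 0.990) for *gpa1*, *rev1* and *gde1* (0.994 and 0.988) for *ste6*, *sec39* and *mfm2* (0.981 and 0.979) for *ste4*, *hri1* and SPAC3H8.08c (0.992 and 0.986) for *byr2*, *taf1* and *cwf24* (0.984 and 0.981) for *byr1*, *alg14* and *atp17* (0.981 and 0.981) for *spk1* and *crd1* and SPAC688.03c (0.995 and 0.990) for *fus1*. *mfm2*, another M-factor gene, was the 1 gene of the pathway lists among these 14. *ras1* was left out, since its means spanned only 0.88 on the log2 scale.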

How the data were processed

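Total RNA was depleted of ribosomal RNA and sequenced from stranded libraries. The authors' processing notes name FastQC 0.11.8, Trimmomatic 0.38, HISAT2 2.1.0 and featureCounts (Subread 1.6.3), with the build ASM294v2. The deposited signal is the count per gene divided by a DESeq2 size factor, in 2 tables normalized separately. 100% of values were whole multiples of 1 step per library (tolerance 0.001), which gave the reads.

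The log2 of (value + 1) was modelled in limma 3.58.1 under R 4.3.3 (mean-variance trend, genes with a mean of at least 10). The 27 starvation libraries were fitted together and the 4 others alone, and p-values were adjusted by Benjamini-Hochberg over all genes. Scripts were tested on simulated data. Alternatives were a pseudocount of 10, no filter, a minimum mean of 50, quantile normalization, equal totals, no trend, a block for the replicate number, a fit of the compared groups alone, edgeR 4.0.16, DESeq2 1.42.0, and leaving out each library.

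Gene names and overlaps came from RefSeq (6852 of 7001 identifiers matched, another build, so no coordinates are given). The 8 genes and all lists were chosen with earlier results of these data known. From each list, the largest called rise and fall in 3 comparisons at 4 h were named. The likeness was computed for members whose means spanned at least 1. Same-numbered libraries deviated together (r above 0.1 in every pair) only between *igo1*∆ and the wild type at 1 h (0.170 to 0.264) and between *igo1*∆ at 4 h and in MM (0.103 to 0.182).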

Additional observations from a re-analysis of the deposited data

Results flagged for a closer look

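Each value below is the log2 change from MM in a deletion strain minus that in the wild type, and each stands here because limma with Benjamini-Hochberg adjustment called the difference itself. After 4 h, it was -5.90 for *ste6*, -3.28 for *spk1*, -2.65 for *ste4*, -1.63 for *gpa1*, -1.12 for *byr2* and -0.42 for *fus1* in *igo1*∆. In *ppk18*∆ *cek1*∆ at 4 h, *ste6* had -5.80, *spk1* -2.89, *ste4* -2.48, *gpa1* -1.37, *byr2* -1.08 and *fus1* -0.33. The response of *ras1* was larger than in the wild type, by 0.85 in *igo1*∆ and 0.82 in *ppk18*∆ *cek1*∆, and that of *byr1* by 0.86 and 0.47.

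After 1 h, *byr2* stood apart in both strains, at -1.65 in *igo1*∆ and -1.56 in *ppk18*∆ *cek1*∆. *fus1* was at -0.51 in *igo1*∆ and -0.51 in *ppk18*∆ *cek1*∆, and *gpa1* at -0.31 and -0.27. *spk1* was at -0.52 in *igo1*∆. *ras1* was the gene with a positive difference, 0.61 in *igo1*∆ and 0.68 in *ppk18*∆ *cek1*∆. Its mean at 1 h was below that in MM in the wild type, except at equal totals, and above it in both deletion strains.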

How the results depend on the processing

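Of the values of single genes under an alternative, 2520 kept their direction and their side of the threshold, 23 became called, 44 were no longer called and 21 changed sign. Scaling every library to the same total turned 8 values: *ras1* in the wild type at 1 h (0.22) and 4 h (0.14), *byr1* at 1 h against MM in *igo1*∆ (0.19) and *ppk18*∆ *cek1*∆ (0.054), *ste4* likewise (0.18 and 0.29), *spk1* at 4 h against MM in *igo1*∆ (0.20) and *fus1* in *igo1*∆ against the wild type in MM (-0.00087). That scaling moved the median of all genes to 0.47 in the wild type at 1 h and 4 h, 0.41 and 0.31 in *igo1*∆ and 0.37 and 0.29 in *ppk18*∆ *cek1*∆, with 3762 genes higher and 1348 lower in the wild type at 4 h in place of 2411 and 2380.

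Without 1 library, values that were not called crossed 0. In MM, *igo1*∆ against the wild type ranged from -0.049 to 0.070 for *ras1*, -0.090 to 0.088 for *fus1* and -0.11 to 0.010 for *byr2*, and *ppk18*∆ *cek1*∆ from -0.12 to 0.11 for *ste6* and -0.10 to 0.013 for *byr1*. Against MM, *spk1* in *igo1*∆ at 4 h ranged from -0.23 to 0.00040 and *ste4* in *ppk18*∆ *cek1*∆ at 1 h from -0.14 to 0.0059. The number of the 8 genes called between *igo1*∆ and *ppk18*∆ *cek1*∆ at 4 h was 1 to 4 with 1 library left out (1 without *igo1*∆ replicate 2, 1 without *ppk18*∆ *cek1*∆ replicate 3 and 4 without *ppk18*∆ *cek1*∆ replicate 1) and 0 with only the groups compared, in place of 2. In the other 18 comparisons this number stayed within 1.5 times under every alternative.

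Further calls at 1 h and 4 h rested on single libraries. The smaller response of *gpa1* in *ppk18*∆ *cek1*∆ at 1 h was not called without *ppk18*∆ *cek1*∆ MM replicate 3 (-0.23), *ppk18*∆ *cek1*∆ 1 h replicate 1 (-0.25), wild type MM replicate 2 (-0.21) or wild type 1 h replicate 1 (-0.23), nor with quantile normalization (-0.22). That of *spk1* in *igo1*∆ at 1 h was not called without *igo1*∆ MM replicate 2 (-0.49), wild type MM replicate 3 (-0.41) or wild type 1 h replicate 1 (-0.48). That of *fus1* in *ppk18*∆ *cek1*∆ at 4 h was lost without *ppk18*∆ *cek1*∆ MM replicate 1 (-0.27), 4 h replicate 1 (-0.30) or 4 h replicate 2 (-0.29), or wild type MM replicate 2 (-0.29), MM replicate 3 (-0.29) or 4 h replicate 1 (-0.26). The cause of these changes was not tested.

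With the replicate number as a block, all 152 values kept their call, for example *byr2* in *igo1*∆ against the wild type at 1 h, at -1.69. In the overexpression experiment the correlation was -0.14. A crossed pairing was also fitted there, but it was chosen after seeing the data and is not read as support for the calls.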
